A study of Homo sapiens with 9 samples.

Results

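The genes described here include feedback brakes and first transcriptional responders of mitogen-activated protein kinase (MAPK) signalling. The genes were measured in HT-29 cells, an established human colon adenocarcinoma line with epithelial morphology. They were taken by a rule on gene names: dual-specificity phosphatases (DUSP), Sprouty (SPRY) and SPRED inhibitors, and the EGR, IER, FOS and JUN families. The rule also named the PEA3 group of ETS factors (ETV1, ETV4, ETV5), KLF4, KLF6, KLF10, MAFF, EPHA2, PHLDA1 and PHLDA2. It was chosen with earlier results of these data known. The members' shares set beside those of all genes are therefore descriptions, not tests. Of 14884 genes with a named row on the array, 47 met the rule, with 62 of 16098 rows. Another 8 symbols of the rule (EGR2, IER5L, PHLDA1, PHLDA2, SPRED1, SPRED2, SPRED3 and SPRY1) had no named row in the annotation used here. After the dimmest 25% of genes were left out (mean log2 level under 4.5), 45 members were tested. The other 2, DUSP19 and DUSP21, lay under that limit in all 3 groups. Of the 45, 11 were dual-specificity phosphatases outside the MAPK phosphatase groups described below, since the rule covers every numbered DUSP gene. Counts of members therefore are not counts of MAPK brakes and responders alone.

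The groups were cells given rosemary extract, a polyphenol-rich plant extract, cells given carnosic acid, a phenolic diterpene of rosemary, and untreated cells, which received the vehicle. Each group had 3 arrays, called biological replicates in the series' design text, and all cells were harvested at 24 h. They were trypsinized before RNA extraction in every group, per the labels. The labels used here state no concentration, so whether the doses of the extract and of carnosic acid match is unknown. Values are RMA levels on a log2 scale, averages over the cells of a culture, so that a change in every cell and a change in a share of the cells cannot be told apart. Of 10 colon epithelial marker genes 9 were tested, with untreated means from 5.77 (CDX2) to 12.59 (KRT18). With the extract 2 of these 9 were higher (22.2%) and 3 lower (33.3%), where all genes tested gave 21.8% and 16.3%. With carnosic acid 3 were higher and 3 lower (33.3% each), where all genes gave 12.9% and 6.12%. Some epithelial marker levels thus differed between the groups, while CDX1, CDX2 and KRT8 were counted as neither higher nor lower in either treatment. CEACAM5 averaged 10.01 with the extract, 9.40 with carnosic acid and 7.19 in untreated cells, and VIL1 averaged 7.26, 8.20 and 8.55 in the same groups. Their part in the results was not tested.

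Growth factor receptors and RAS activate a chain of kinases that ends in ERK, while stress signals activate the related kinases JNK and p38. Active ERK induces a wave of transcription factors, the immediate early genes, within minutes, and then a slower set of inhibitors. Among these, several dual-specificity phosphatases remove the activating phosphates from MAPKs, and Sprouty proteins act further up, between receptors and RAF. Their transcripts are therefore used as readouts of MAPK signalling, although a transcript level does not measure kinase activity.

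Promoters of members that behaved differently are shown because the immediate early genes are textbook examples of a few short promoter elements. The sequences are the 250 bases before a transcript start in RefSeq, 5′ to 3′ on the strand of the gene, for DUSP1 and SPRY4, which rose with both treatments, FOS, which fell, and EGR1, which was not called. Capitals mark matches to any of 4 motifs searched on both strands: the cAMP response element TGACGTCA, the AP-1 site TGANTCA, the EGR site GCGNGGGCG and the CArG box.
DUSP1, GRCh38.p14 chr5:172771196-172771445, minus strand: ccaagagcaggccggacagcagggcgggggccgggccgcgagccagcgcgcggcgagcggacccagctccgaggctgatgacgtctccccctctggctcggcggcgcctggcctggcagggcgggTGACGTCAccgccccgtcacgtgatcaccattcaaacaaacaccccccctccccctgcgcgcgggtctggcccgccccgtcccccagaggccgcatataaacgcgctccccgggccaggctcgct
SPRY4, GRCh38.p14 chr5:142324248-142324497, minus strand: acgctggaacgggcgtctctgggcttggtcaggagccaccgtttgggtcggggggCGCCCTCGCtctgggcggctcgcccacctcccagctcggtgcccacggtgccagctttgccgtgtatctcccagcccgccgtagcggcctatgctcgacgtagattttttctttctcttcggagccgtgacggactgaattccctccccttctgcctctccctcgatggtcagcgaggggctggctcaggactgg
FOS, GRCh38.p14 chr14:75278578-75278827, plus strand: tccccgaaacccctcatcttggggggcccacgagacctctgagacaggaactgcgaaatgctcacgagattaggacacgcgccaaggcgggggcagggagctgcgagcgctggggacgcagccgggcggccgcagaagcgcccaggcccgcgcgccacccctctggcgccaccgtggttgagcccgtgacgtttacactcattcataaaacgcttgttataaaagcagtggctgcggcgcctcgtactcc
EGR1, GRCh38.p14 chr5:138465229-138465478, plus strand: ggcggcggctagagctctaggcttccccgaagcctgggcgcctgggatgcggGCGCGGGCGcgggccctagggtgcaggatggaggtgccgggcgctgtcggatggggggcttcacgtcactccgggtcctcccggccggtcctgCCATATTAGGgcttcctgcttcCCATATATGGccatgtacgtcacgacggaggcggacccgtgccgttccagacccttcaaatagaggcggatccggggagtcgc
The windows of DUSP1, FOS and EGR1 adjoin the outer end of the gene, while that of SPRY4 lies before a start inside the annotated gene. The DUSP1 window held 1 cAMP response element, starting 125 bases before the start. The EGR1 window held 2 CArG boxes, 105 and 83 bases before the start, and 1 EGR site. The SPRY4 window held 1 EGR site, and the FOS window held none of these letters. The search covered only the 250 bases and exact letters, so elements farther up or with variant letters are not marked. A window without a match does not show that the promoter lacks the element. Windows were read for 35 of the 45 tested members, 50 windows in all since some genes have several starts. DUSP5, FOSL1 and ETV5 were not among these 35. The cAMP response element was in 5 of the 50 windows (10%), against 1.65% of all 35116 windows in the table, and the EGR site in 11 (22%), against 8.41%. Besides DUSP1, the members with a cAMP response element were DUSP8, JUND, MAFF and EPHA2, of which only EPHA2 was called, with the extract. The CArG box was in 1 window (2%), against 1.16%, and the AP-1 site in 0, against 6.57%. A match is a description of the letters, not a site in use.

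Rosemary extract against untreated cells asked which of these genes the whole extract changed. The members split: DUSP5, DUSP18, SPRY4, FOSL1, DUSP3, DUSP1, ETV5 and SPRY3 were higher by over 1.5-fold. FOS, DUSP2, FOSB, JUN, ETV1 and SPRY2 were lower, and DUSP6, EGR1 and ETV4 were among those not called. Of 45 tested members 21 were higher (46.7%) and 6 lower (13.3%) at a limma adjusted p under 0.05. Over all 11163 genes tested 21.8% were higher and 16.3% lower. The members' median log2 change was 0.16, where that of all genes was -0.018. One member, EGR4, passed the dim limit through the treated groups alone and is not among the 27 called.

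The inducible nuclear phosphatases went both ways with the extract. DUSP5, a nuclear phosphatase selective for ERK, had log2 levels of 9.74, 9.57 and 9.37 with rosemary extract, against 8.06, 7.71 and 7.77 in untreated cells. The groups lay well apart, a 3.28-fold rise (log2 1.71 ± 0.12, SE, adjusted p = 6.70e-07). DUSP1, which acts on p38, JNK and ERK, had 10.50, 10.39 and 10.27 with the extract, against 9.49, 9.47 and 9.57 in untreated cells, a 1.84-fold rise with no overlap (adjusted p = 9.48e-06). DUSP2, a nuclear phosphatase best known from lymphocytes, moved the other way, at 7.10, 7.10 and 7.12 with the extract, against 7.64, 7.78 and 7.80 in untreated cells. It fell by 0.63 ± 0.07 (log2, SE, adjusted p = 2.82e-05). DUSP4, nuclear like these, overlapped between groups at 6.67, 6.78 and 6.65 with the extract, against 6.62, 6.63 and 6.68 in untreated cells (0.062 ± 0.090, adjusted p = 0.640).

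Of 3 cytoplasmic phosphatases selective for ERK 1 was higher with the extract (33.3%) and 0 lower, where all genes gave 21.8% and 16.3%. DUSP6, the member most often used as an ERK readout, had 8.59, 8.50 and 8.51 with the extract, against 8.53, 8.54 and 8.62 in untreated cells. Its 95% interval of the difference ran from -0.16 to 0.10, while that of DUSP5 ran from 1.45 to 1.98. DUSP7, a close relative of DUSP6, rose by 0.33 ± 0.08 (log2, SE, adjusted p = 0.00787), and DUSP9 was not called. Of the phosphatases that prefer JNK and p38, DUSP10 rose by 0.45 ± 0.10 (adjusted p = 0.00379) and DUSP16 by 0.36 ± 0.09 (adjusted p = 0.00513), and DUSP8 was not called.

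Among 11 other dual-specificity phosphatases tested 5 were higher with the extract (45.5%) and 0 lower, where all genes gave 21.8% and 16.3%. The median log2 change of these 11 was 0.037. DUSP18, an atypical phosphatase reported in mitochondria, had 7.74, 7.84 and 7.63 with the extract, against 6.96, 6.67 and 6.64 in untreated cells, a 1.97-fold rise (adjusted p = 1.54e-05). DUSP3, a small phosphatase of ERK and JNK, had 8.79, 8.49 and 8.61 with the extract, against 7.76, 7.68 and 7.74 in untreated cells, a 1.86-fold rise (adjusted p = 4.67e-06). Both were clear of the untreated arrays. DUSP23 rose by 0.26 (adjusted p = 0.0160), a call lost without rosemary extract replicate 1 (0.0525) or untreated replicate 1 (0.0634). DUSP22 (0.21, adjusted p = 0.0448) and DUSP11 (0.17, adjusted p = 0.0383) lay near the threshold, and each lost its call without any of 7 of the 9 arrays, all but rosemary extract replicate 3 and carnosic acid replicate 3 (highest adjusted p 0.143 and 0.155). The dim members had no call in a fit of all named rows: DUSP19 differed by -0.50 (adjusted p = 0.0642) and DUSP21 by -0.092 (adjusted p = 0.565).

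Sprouty genes, inhibitors of receptor signalling to RAS and ERK, split with the extract. SPRY4 had 8.87, 8.82 and 8.43 with the extract, against 7.94, 7.67 and 7.59 in untreated cells, a 1.96-fold rise (log2 0.97 ± 0.13, SE, adjusted p = 0.000106). SPRY3 had 6.59, 6.70 and 6.63 with the extract, against 6.05, 5.93 and 6.09 in untreated cells (adjusted p = 6.29e-05). Both were higher on every extract array than on any untreated one. SPRY2 had 7.59, 7.62 and 7.60 with the extract, against 7.94, 7.88 and 7.90 in untreated cells, and fell by 0.30 ± 0.06 (adjusted p = 0.00245).

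**Figure D1:**
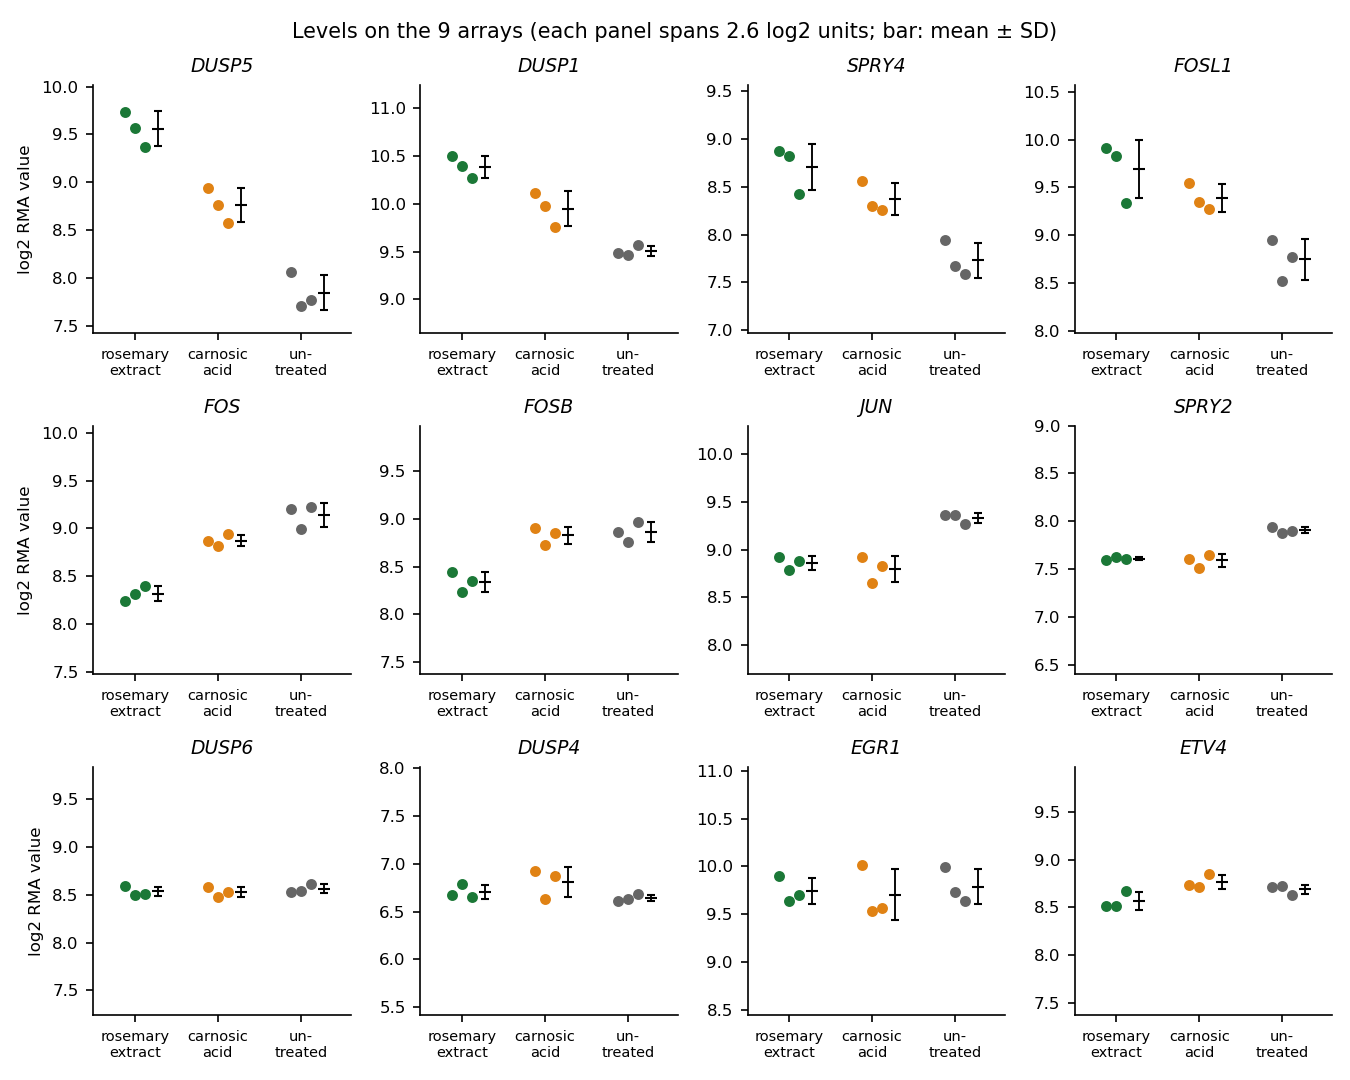
Log2 RMA levels of 12 members on each array, by group (points, 3 arrays a group, with mean and SD as the bar beside them). DUSP5, DUSP1, SPRY4 and FOSL1 are higher in both treatments, FOS, JUN and SPRY2 are lower, FOSB is lower with the extract, and DUSP6, DUSP4, EGR1 and ETV4 overlap between treated and untreated arrays.

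FOS and JUN proteins pair to form the transcription factor AP-1, and their genes did not move together. FOS had 8.24, 8.32 and 8.40 with the extract, against 9.20, 8.99 and 9.22 in untreated cells. It fell by 0.82 ± 0.07 (log2, SE, adjusted p = 4.63e-06). FOSB fell by 0.52 ± 0.08 (adjusted p = 0.000217), at 8.44, 8.23 and 8.35 with the extract, against 8.86, 8.76 and 8.97 in untreated cells. JUN also fell, by 0.47 ± 0.07 (adjusted p = 0.000304), with 8.92, 8.78 and 8.88 on the extract arrays, against 9.37, 9.36 and 9.27 on the untreated ones. In the same family FOSL1, which encodes FRA1, a FOS relative kept stable by ERK, had 9.91, 9.83 and 9.34 with the extract, against 8.95, 8.52 and 8.78 in untreated cells. That was a 1.93-fold rise (log2 0.94 ± 0.15, adjusted p = 0.000303), with rosemary extract replicate 3 the lowest treated array and still above all untreated ones. JUNB rose by 0.36 (adjusted p = 0.00500), and FOSL2 by 0.30 (adjusted p = 0.0154), a call lost without rosemary extract replicate 1 (0.0664) or 2 (0.0721). JUND was not called.

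None of the 3 tested EGR genes, zinc finger factors of the immediate early wave, was called with the extract. Over all genes 21.8% were higher and 16.3% lower. EGR1 had 9.90, 9.63 and 9.70 with the extract, against 9.99, 9.73 and 9.64 in untreated cells, and its interval ran from -0.32 to 0.24. EGR3 differed by -0.20 (adjusted p = 0.135) and EGR4 by 0.19 (adjusted p = 0.112). Of the IER genes, IER5 had 8.18, 8.15 and 8.15 with the extract, against 7.78, 7.73 and 7.47 in untreated cells, and rose by 0.50 ± 0.08 (adjusted p = 0.000587). IER3, a stress- and growth-factor-induced gene, rose by 0.39 ± 0.07 (adjusted p = 0.000680), and IER2 was not called. KLF10, first known as a TGF-beta-induced factor, rose by 0.48 ± 0.09 (adjusted p = 0.000958). KLF4 rose by 0.34 (adjusted p = 0.0188), which was lost without rosemary extract replicate 1 (0.0850) or untreated replicate 3 (0.0718). MAFF, a small MAF factor, differed by 0.34 ± 0.13 (adjusted p = 0.0654), and KLF6 was not called.

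The PEA3 factors, ETS proteins whose genes follow ERK activity in many tumours, gave 3 different outcomes with the extract. ETV5 had 6.75, 6.73 and 6.47 with the extract, against 6.09, 5.75 and 5.75 in untreated cells, a 1.72-fold rise (adjusted p = 0.000612). ETV1 had 5.87, 5.80 and 5.86 with the extract, against 6.25, 6.09 and 6.16 in untreated cells. It fell by 0.32 ± 0.09 (adjusted p = 0.0184), a call lost without rosemary extract replicate 2 (0.0653) or untreated replicate 1 (0.0656). ETV4 overlapped at 8.51, 8.52 and 8.68 with the extract, against 8.71, 8.72 and 8.63 in untreated cells (-0.12, adjusted p = 0.191). EPHA2, an ephrin receptor kinase induced by ERK, had 9.51, 9.42 and 9.49 with the extract, against 9.37, 9.23 and 9.34 in untreated cells. It rose by 0.16 (adjusted p = 0.0385). That call was lost without any of the 3 rosemary extract arrays (0.125, 0.0507 and 0.0851), carnosic acid replicate 2 (0.0573) or untreated replicates 2 (0.124) and 3 (0.0513).

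The next comparison set carnosic acid alone against the vehicle. DUSP5, DUSP18, IER5, SPRY4 and FOSL1 rose by more than 1.5-fold, and JUN, DUSP2, SPRY2 and FOS fell. Of 45 tested members 11 were higher (24.4%) and 4 lower (8.89%), where 12.9% of all genes tested were higher and 6.12% lower. The members' median log2 change was 0.13, against -0.011 over all genes. This comparison shares its untreated arrays with that of the extract.

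DUSP5 had 8.94, 8.77 and 8.58 with carnosic acid, against 8.06, 7.71 and 7.77 in untreated cells, a 1.89-fold rise (log2 0.92 ± 0.12, SE, adjusted p = 0.000357). DUSP1 had 10.12, 9.98 and 9.76 with carnosic acid, against 9.49, 9.47 and 9.57 in untreated cells, and rose by 0.44 ± 0.09 (adjusted p = 0.00435). DUSP2 had 7.19, 7.33 and 7.26 with carnosic acid, against 7.64, 7.78 and 7.80 in untreated cells, and fell by 0.48 ± 0.07 (adjusted p = 0.000810). In all 3 of these nuclear phosphatases the treated and untreated arrays lay apart. DUSP4 had 6.93, 6.63 and 6.87 with carnosic acid, against 6.62, 6.63 and 6.68 in untreated cells (0.17, adjusted p = 0.226).

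DUSP18 had 7.59, 7.47 and 7.33 with carnosic acid, against 6.96, 6.67 and 6.64 in untreated cells, a 1.63-fold rise (adjusted p = 0.000699). DUSP3 had 8.32, 8.25 and 8.15 with carnosic acid, against 7.76, 7.68 and 7.74 in untreated cells, and rose by 0.51 ± 0.08 (adjusted p = 0.00124). DUSP23 rose by 0.25 (adjusted p = 0.0332), which was lost without rosemary extract replicate 2 (0.0533), carnosic acid replicates 1 (0.0504) and 3 (0.104) or untreated replicates 1 (0.114) and 3 (0.0632). None of the 6 phosphatases selective for ERK in the cytoplasm or for JNK and p38 was called. Over all genes 12.9% were higher and 6.12% lower. DUSP6 had 8.58, 8.47 and 8.53 with carnosic acid, against 8.53, 8.54 and 8.62 in untreated cells, with an interval from -0.16 to 0.09. DUSP7 differed by 0.25 (adjusted p = 0.0565), DUSP10 by 0.057 (adjusted p = 0.746) and DUSP16 by -0.020 (adjusted p = 0.902).

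All 3 tested Sprouty genes were called with carnosic acid, 2 higher and 1 lower, where all genes gave 12.9% and 6.12%. SPRY1 had no named row. SPRY4 had 8.56, 8.30 and 8.26 with carnosic acid, against 7.94, 7.67 and 7.59 in untreated cells, a 1.56-fold rise (adjusted p = 0.00555). SPRY3 had 6.47, 6.42 and 6.44 with carnosic acid, against 6.05, 5.93 and 6.09 in untreated cells, and rose by 0.42 ± 0.08 (adjusted p = 0.00305). SPRY2 had 7.61, 7.51 and 7.65 with carnosic acid, against 7.94, 7.88 and 7.90 in untreated cells, and fell by 0.32 ± 0.06 (adjusted p = 0.00445). All 3 had carnosic acid arrays clear of the untreated ones.

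In the AP-1 family, FOSL1 had 9.55, 9.34 and 9.27 with carnosic acid, against 8.95, 8.52 and 8.78 in untreated cells, a 1.56-fold rise (adjusted p = 0.00993). JUN had 8.92, 8.65 and 8.83 with carnosic acid, against 9.37, 9.36 and 9.27 in untreated cells, and fell by 0.53 ± 0.07 (adjusted p = 0.000464). FOS had 8.86, 8.82 and 8.94 with carnosic acid, against 9.20, 8.99 and 9.22 in untreated cells, and fell by 0.27 ± 0.07 (adjusted p = 0.0283). The FOS call was lost without carnosic acid replicate 1 (0.0859) or 2 (0.0908), without untreated replicate 1 (0.0990) or 3 (0.0864), and with arrays centred on their medians (0.0749). With all rows of the array tested, the calls of both FOS (0.105) and FOSL1 (0.0590) were lost. FOSB had 8.90, 8.73 and 8.85 with carnosic acid, against 8.86, 8.76 and 8.97 in untreated cells, with an interval from -0.20 to 0.13. JUNB differed by 0.22 (adjusted p = 0.0966).

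IER5 had 8.43, 8.29 and 8.26 with carnosic acid, against 7.78, 7.73 and 7.47 in untreated cells, a 1.59-fold rise (adjusted p = 0.000292). IER3 rose by 0.32 ± 0.07 (adjusted p = 0.00648). EGR1 again overlapped, at 10.01, 9.54 and 9.56 with carnosic acid, against 9.99, 9.73 and 9.64 in untreated cells (-0.083, adjusted p = 0.706). EGR3 differed by -0.25 (adjusted p = 0.112) and KLF10 by 0.22 (adjusted p = 0.103), and none of KLF4, KLF6, KLF10 and MAFF was called. ETV5 had 6.67, 6.34 and 6.27 with carnosic acid, against 6.09, 5.75 and 5.75 in untreated cells, and rose by 0.56 ± 0.13 (adjusted p = 0.0124). Its call was lost without carnosic acid replicate 1 (0.0554) or untreated replicate 2 (0.0520). ETV1 differed by 0.19 (adjusted p = 0.185), ETV4 by 0.078 (adjusted p = 0.453) and EPHA2 by 0.14 (adjusted p = 0.0869).

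**Figure D2:**
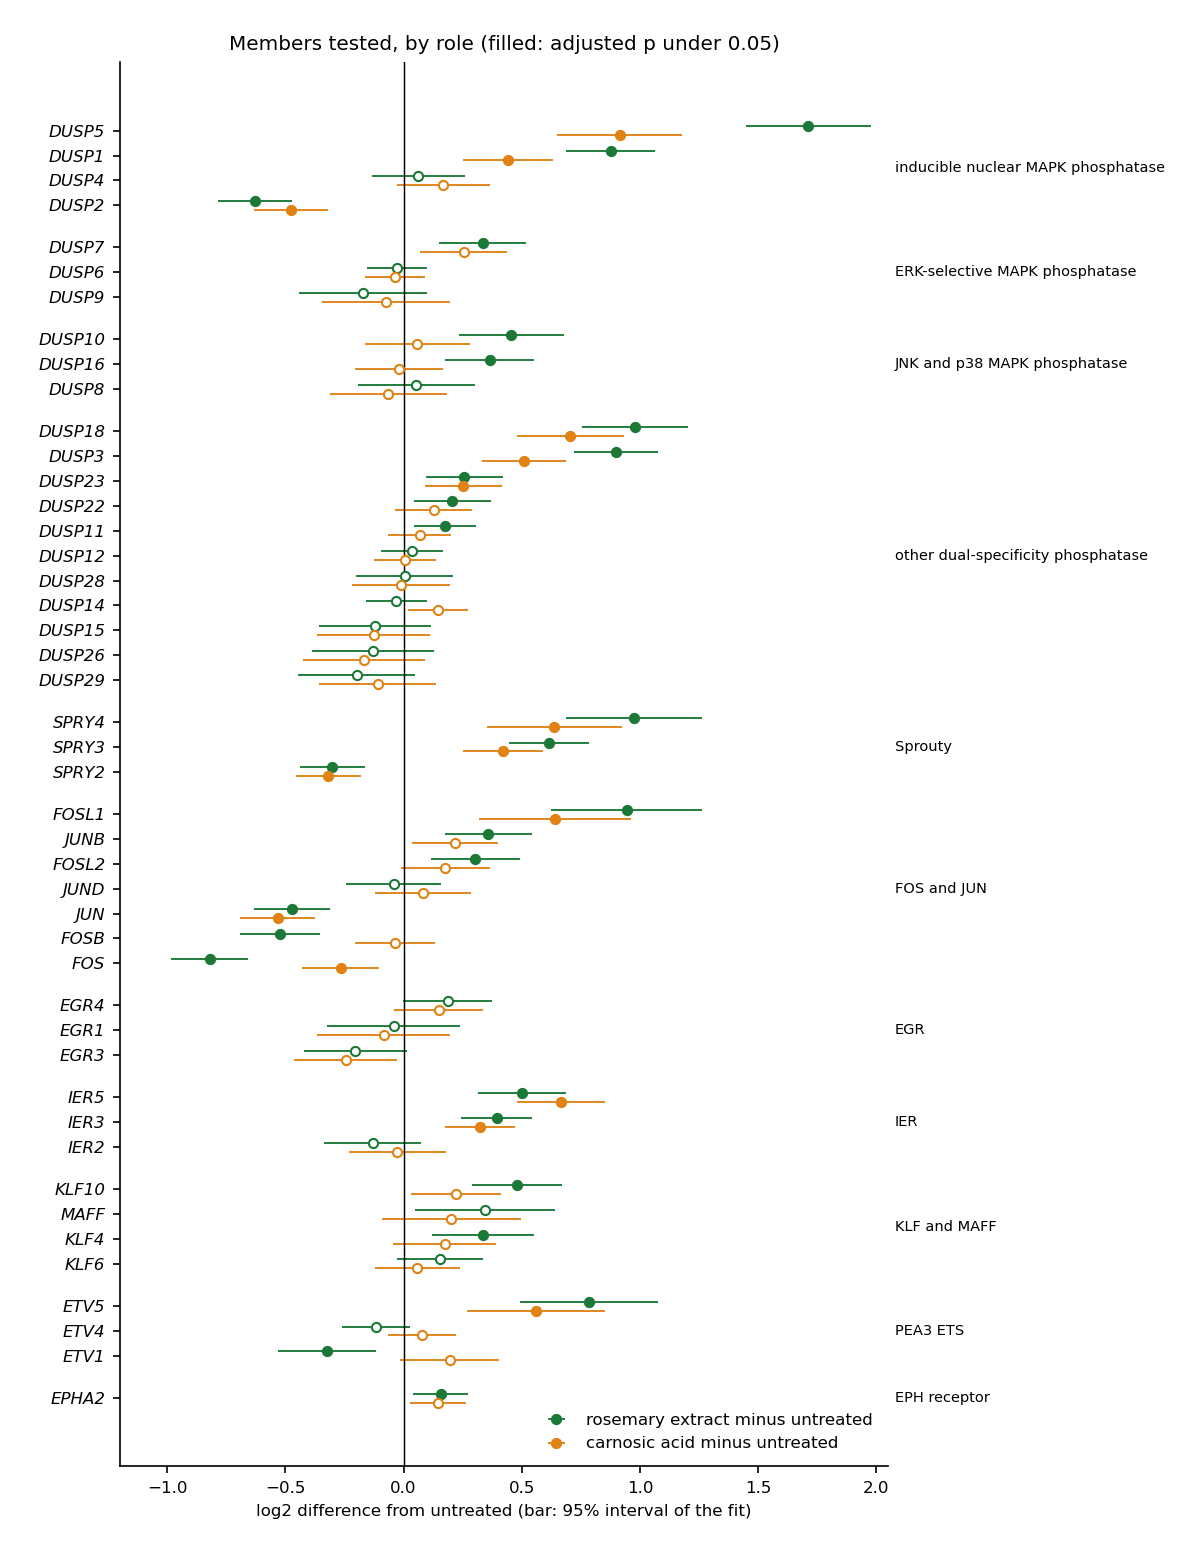
Log2 difference from untreated cells of the 45 tested members (x axis), grouped by role, for rosemary extract (green) and carnosic acid (orange), with 95% intervals of the fit and filled points at an adjusted p under 0.05. DUSP5 lies farthest to the right in both treatments (1.71 and 0.92), FOS farthest to the left with the extract (-0.82) and JUN with carnosic acid (-0.53).

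Rosemary extract was then compared with carnosic acid directly. Of 45 members 5 were higher (11.1%) and 3 lower (6.67%) with the extract, near the 8.24% and 9.07% of all genes tested. The 5 higher ones were all phosphatases: 2 of 4 inducible nuclear ones, 2 of 3 that prefer JNK and p38 and 1 of 11 others. Of the 3 cytoplasmic ones selective for ERK 0 were called. With counts near those of all genes, the split by class is a description only. DUSP5 was 1.74-fold higher, at 9.74, 9.57 and 9.37 with the extract, against 8.94, 8.77 and 8.58 with carnosic acid (adjusted p = 0.000787). DUSP1 differed by 0.43 ± 0.09 (log2, SE, adjusted p = 0.00457), DUSP3 by 0.39 ± 0.08 (adjusted p = 0.00617), DUSP10 by 0.40 ± 0.10 (adjusted p = 0.0185) and DUSP16 by 0.38 ± 0.09 (adjusted p = 0.00874). The arrays of the 2 treatments lay apart for each of them. The DUSP10 call was lost without rosemary extract replicate 1 (0.0559) or 2 (0.0827) or carnosic acid replicate 1 (0.0644).

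The 3 lower ones were transcription factor genes, 2 of 7 tested FOS and JUN genes and 1 of 3 tested PEA3 genes. Of 3 EGR genes and of 4 KLF and MAFF genes 0 were called. FOS had 8.24, 8.32 and 8.40 with the extract, against 8.86, 8.82 and 8.94 with carnosic acid, a log2 difference of -0.56 ± 0.07 (SE, adjusted p = 0.000333). FOSB had 8.44, 8.23 and 8.35 with the extract, against 8.90, 8.73 and 8.85 with carnosic acid (-0.49, adjusted p = 0.00106). ETV1 had 5.87, 5.80 and 5.86 with the extract, against 6.37, 6.20 and 6.52 with carnosic acid (-0.52, adjusted p = 0.00274). No array of either treatment overlapped in these 3 genes.

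For several members that changed in both treatments a difference between them was not shown. SPRY4 differed by 0.34 (95% interval 0.05 to 0.62, adjusted p = 0.114), FOSL1 by 0.30 (-0.02 to 0.62, adjusted p = 0.207) and ETV5 by 0.22 (-0.07 to 0.51, adjusted p = 0.327). DUSP18 differed by 0.27 (0.05 to 0.50, adjusted p = 0.101), SPRY3 by 0.20 (0.03 to 0.37, adjusted p = 0.119) and DUSP2 by -0.15 (-0.31 to 0.01, adjusted p = 0.200). IER5 had the opposite order of means, at -0.16 (-0.35 to 0.02, adjusted p = 0.243). ETV4, called in neither treatment against untreated cells, differed by -0.20 (-0.34 to -0.05, adjusted p = 0.0645). These intervals still allow differences of the size seen for DUSP1 or DUSP3 in SPRY4, FOSL1, ETV5 and DUSP18.

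Some members had several array rows (6 genes), and rows of a gene did not always move together. For DUSP5 the second, dimmer row had 6.97, 6.92 and 6.61 with the extract, 6.54, 6.17 and 6.34 with carnosic acid and 6.36, 6.29 and 6.38 in untreated cells. It rose with the extract by 0.49 ± 0.12 (log2, SE, adjusted p = 0.00817 over all named rows) and was not called with carnosic acid (0.0037, adjusted p = 0.988), so the DUSP5 rise with carnosic acid rests on the brighter row. The mean of both rows still gave a rise of 0.46 with carnosic acid and 1.10 with the extract. The second row of FOS moved further than the first, with 6.46, 6.42 and 6.58 with the extract, 6.92, 6.97 and 6.98 with carnosic acid and 8.19, 7.84 and 7.81 in untreated cells. That row fell by 1.46 ± 0.10 with the extract (adjusted p = 1.58e-06) and by 0.99 ± 0.10 with carnosic acid (adjusted p = 0.000148). The second FOSB row had 7.01, 6.91 and 7.04 with the extract, 7.54, 7.15 and 7.39 with carnosic acid and 7.91, 7.50 and 7.72 in untreated cells, and fell with the extract by 0.72 (adjusted p = 0.000901). It was not called with carnosic acid (-0.35, adjusted p = 0.0891) or between the treatments (-0.37, adjusted p = 0.0772), so the FOSB call between the treatments rests on the brighter row.

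The second EGR1 row lay at 6.60, 6.68 and 6.46 with the extract, 6.88, 6.02 and 6.37 with carnosic acid and 7.12, 6.90 and 7.02 in untreated cells. It was below the untreated arrays in both treatments, unlike the brighter row, without a call (-0.43, adjusted p = 0.101, and -0.59, adjusted p = 0.0522). The 2 SPRY3 rows gave the same rise of 0.62 with the extract and 0.42 and 0.43 with carnosic acid. The 11 rows of IER3 held only 4 distinct sets of values. The brightest had 10.89, 10.86 and 10.69 with the extract, 10.84, 10.69 and 10.69 with carnosic acid and 10.49, 10.45 and 10.32 in untreated cells. The dimmest had 6.57, 6.60 and 6.56 with the extract, 6.52, 6.53 and 6.36 with carnosic acid and 6.70, 6.60 and 6.90 in untreated cells. Of these sets the 3 brighter sets rose with the extract by 0.33 to 0.39 and with carnosic acid by 0.30 to 0.34, and the dimmest, shared by 5 rows, was not called (-0.16, adjusted p = 0.25, and -0.26, adjusted p = 0.0891). The mean of the IER3 rows was not called in either treatment (0.11, adjusted p = 0.156, and 0.052, adjusted p = 0.588). The annotation gives both rows of a gene the same transcript and no strand, so which strand a row reads was not tested.

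**Figure D3:**
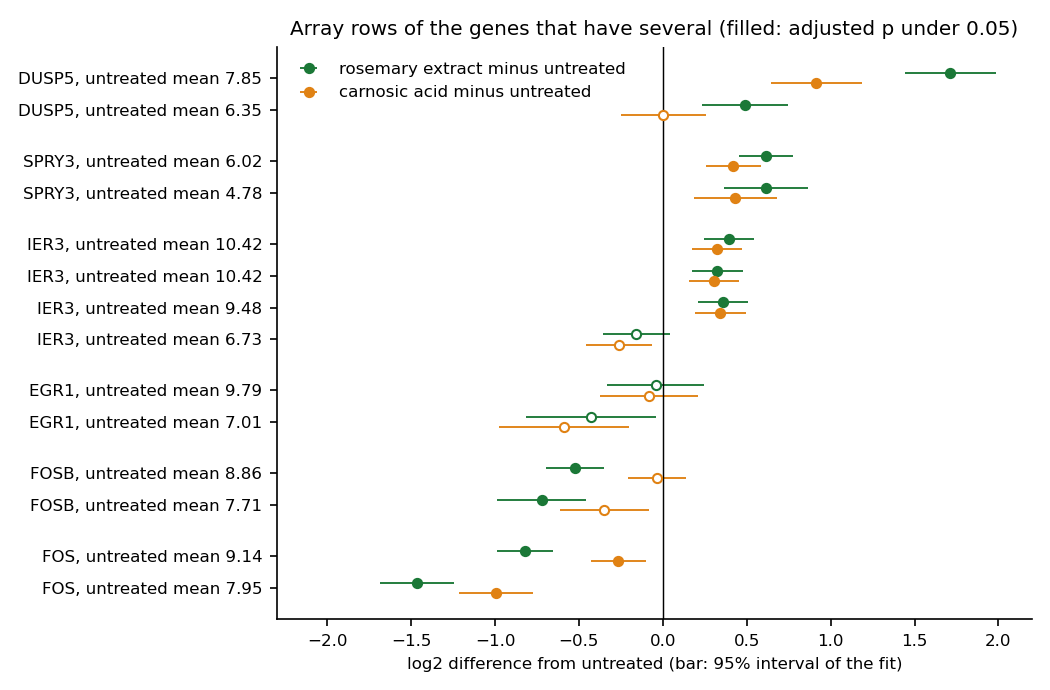
Log2 difference from untreated cells (x axis, 95% intervals) for each distinct array row of the members with several rows, labelled with the row's untreated mean level, for rosemary extract (green) and carnosic acid (orange), filled at an adjusted p under 0.05. The brighter DUSP5 row stands at 1.71 and 0.92 and the dimmer at 0.49 and 0.0037, while the dimmer FOS row lies below the brighter one.

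Other genes of the MAPK pathways came from lists of kinases, ligands and response genes, also chosen with earlier results of these data known. The 27-gene list of the RAS and ERK core had 18 tested genes, of which 9 were higher and 3 lower with the extract and 7 were higher and 1 lower with carnosic acid. These are 50% and 16.7% with the extract, where all genes gave 21.8% and 16.3%, and 38.9% and 5.56% with carnosic acid, where all genes gave 12.9% and 6.12%. The adaptor SHC1 rose by 0.75 with the extract (adjusted p = 5.62e-06) and by 0.47 with carnosic acid (adjusted p = 0.000792). The RAS exchange factor SOS2 rose by 1.11 with the extract (adjusted p = 2.59e-05) and by 0.46 with carnosic acid (adjusted p = 0.0233). PEBP1, an inhibitor of RAF, fell by 0.76 (adjusted p = 2.92e-05) and 0.39 (adjusted p = 0.00917), the second call being lost with all rows of the array tested (0.0525). EGFR rose by 0.23 with the extract (adjusted p = 0.0117) and 0.34 with carnosic acid (adjusted p = 0.00283), and the ERK gene MAPK3 was not called (0.18, adjusted p = 0.103, and 0.21, adjusted p = 0.0846). Of 4 tested EGFR ligands 3 (75%) were higher with the extract and 1 (25%) with carnosic acid, and 0 were lower. EGF itself rose by 0.73 (adjusted p = 6.11e-05) and 0.60 (adjusted p = 0.000940), and HBEGF by 0.51 with the extract (adjusted p = 0.00328).

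Of 13 tested JNK and p38 kinases 4 were higher and 3 lower with the extract, and 2 were higher and 0 lower with carnosic acid. The shares with the extract, 30.8% and 23.1%, stand beside 21.8% and 16.3% of all genes, and 15.4% with carnosic acid beside 12.9%. The p38 isoform gene MAPK13 rose by 0.94 with the extract (adjusted p = 6.16e-07) and by 0.61 with carnosic acid (adjusted p = 9.44e-05), and MAP2K4, a JNK activator, by 1.0 (adjusted p = 0.000239) and 0.81 (adjusted p = 0.00308). Of 14 other growth factor response genes 5 were higher (35.7%) and 3 lower (21.4%) in each treatment. ETS1 rose by 1.46 (adjusted p = 3.36e-07) and 1.01 (adjusted p = 3.94e-05), and LIF by 0.73 (adjusted p = 7.94e-06) and 0.67 (adjusted p = 8.95e-05). MYC, a growth regulator, averaged 9.03 ± 0.02 with the extract, 9.40 ± 0.18 with carnosic acid and 9.75 ± 0.07 in untreated cells (SD, n = 3). It fell by 0.72 (adjusted p = 2.53e-05) and 0.35 (adjusted p = 0.0101), and the call with carnosic acid was lost with all rows of the array tested (0.0555). ETS2 fell by 0.70 (adjusted p = 6.60e-07) and 0.48 (adjusted p = 7.34e-05), and CCN2 by 1.04 in each treatment (adjusted p = 8.63e-07 and 7.37e-06), or by 0.53 and 0.49 when averaged with its second, dim row. CCND1 (-0.13, adjusted p = 0.132, and -0.055, adjusted p = 0.590) and ATF3 (-0.065, adjusted p = 0.759, and 0.00077, adjusted p = 0.998) were not called.

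Of 4 other AP-1 and small MAF factors 1 was higher in each treatment (25%) and 0 lower. It was MAFG, up by 0.71 with the extract (adjusted p = 0.000165) and by 0.40 with carnosic acid (adjusted p = 0.0181). Of 11 other KLF factors 2 were higher and 1 lower with the extract, and 1 was higher and 1 lower with carnosic acid. Those shares, 18.2% and 9.09% with the extract and 9.09% each way with carnosic acid, stand beside those of all genes (21.8% and 16.3%, and 12.9% and 6.12%). KLF9 rose by 0.99 with the extract (adjusted p = 0.000349) and by 0.17 with carnosic acid without a call (adjusted p = 0.480), a difference of 0.81 between the treatments (adjusted p = 0.00360). KLF11 rose by 0.47 with the extract (adjusted p = 0.00185) and by 0.32 with carnosic acid (adjusted p = 0.0314). The lists' medians with the extract ran from -0.059 (growth factor response genes) to 0.48 (EGFR ligands).

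**Figure D4:**
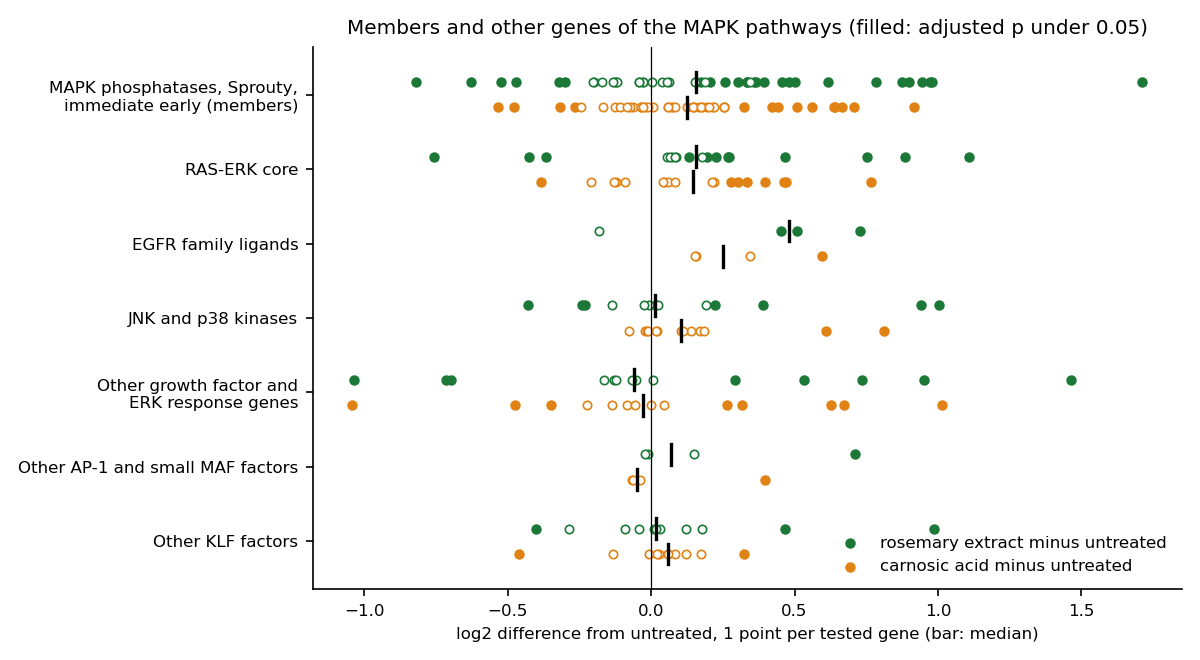
Log2 difference from untreated cells (x axis) of the 45 members and of each tested gene of 6 other lists of the MAPK pathways, for rosemary extract (green) and carnosic acid (orange), filled at an adjusted p under 0.05, with the list median as a bar. The members' medians are 0.16 and 0.13, and members and response genes spread to both sides of 0.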

How the data were processed

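HT-29 RNA was hybridised to Affymetrix gene arrays (GeneChip 2.0 ST per the labels), 3 arrays for each of 3 groups, named by their titles. The deposited values are log2 expression values that the authors made with RMA in the oligo package, per the labels and the submitters' processing notes. No version is stated there. That the scale is log2 was judged from the range of the values. RMA shrinks large changes and makes no call of presence, and the number of arrays (9) limits precision. Gene names came from the platform annotation, checked against RefSeq (GRCh38.p14 table, 16098 of 16098 identifiers matched). Array medians lay between 4.82 and 4.90.

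For each gene the brightest row was kept, and group means were fitted to all 9 arrays with limma 3.58.1 in R 4.3.3 (mean-variance trend, 6 residual degrees of freedom), with Benjamini-Hochberg adjustment over 11163 genes. Calls are at an adjusted p under 0.05, two-sided, and errors are limma's SE. Further rows and dim members come from the same fit over all 16098 named rows. Values on all arrays are given for members called with a change of at least 1.5-fold, for called members with several rows (of IER3, the brightest and dimmest sets) and for a set of named feedback genes. Of the other lists, fitted values are given for some of the 4 genes with the smallest p in a comparison, and for MYC, CCND1, EGFR, ATF3 and MAPK3 whatever their values. The members and lists were chosen with earlier results of these data known. Replicate numbers showed no clear pairing of the arrays. Deviations from group means correlated at -0.22 to 0.24 between same-numbered arrays, over 0.1 in 3 of 9 pairs. Between arrays of other numbers they correlated at -0.36 to 0.28. With 3 arrays a group this check cannot exclude pairing. Other settings tried are given in the closing section.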

Additional observations from a re-analysis of the deposited data

How the results depend on the processing

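Of 117 values for a gene in a comparison, each recomputed under up to 20 alternatives, 81 were calls and 64 of these held under all settings run. Counts of members called stayed within 1.5 times in every setting: without each array in turn they were 21 to 27 with the extract (27 with all), 12 to 16 with carnosic acid (15) and 7 to 11 between the treatments (8). With the replicate number as a block they were 25, 17 and 10, without DUSP11 (0.0586) and DUSP22 (0.0687) with the extract. Over all genes the counts without 1 array were 3493 to 4237, 1385 to 2124 and 1289 to 1965, the lowest carnosic acid count (1385, against 2123) being that without carnosic acid replicate 1. With all rows of the array tested, named or not, 7230 rows were called with the extract, from 53617 rows, while members called were fewest, at 20, 11 and 7. That setting lost the calls of DUSP11, DUSP22, DUSP23, EPHA2, ETV1, FOSL2 and KLF4 with the extract (adjusted p 0.0525 to 0.114). It also lost those of DUSP23, ETV5, FOS, FOSL1, MYC and PEBP1 with carnosic acid (0.0525 to 0.107). Between the treatments it lost those of DUSP10 (0.0794) and MYC (0.0567). With arrays centred on the medians of the tested genes, an alternative chosen after seeing the data, carnosic acid gave 1207 higher and 1098 lower genes, against 1440 and 683, and the members were 10 higher and 4 lower. With the extract the members were then 18 higher and 6 lower, against 21 and 6. The calls of DUSP11 (0.0780), DUSP22 (0.0750) and EPHA2 (0.0936) with the extract and of DUSP23 with carnosic acid (0.0555) were lost there. Cyclic loess lost the same calls (0.118, 0.0660, 0.123 and 0.0579).

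Signs turned only in values that were not called. With arrays centred on their medians DUSP6 was 0.0011 with the extract and 0.0026 with carnosic acid, DUSP16 0.019 and FOSB 0.0038 with carnosic acid. ATF3 with carnosic acid was -0.046 with arrays centred on the tested genes, -0.022 under cyclic loess, and -0.043 to -0.0088 without untreated replicate 2 or carnosic acid replicate 1 (-0.027) or 3. With the extract it was 0.12 without rosemary extract replicate 3. EGR1 was 0.014 to 0.059 with the extract without rosemary extract replicate 2 or untreated replicate 1, and 0.018 with carnosic acid without untreated replicate 1. Without carnosic acid replicate 2 or untreated replicate 3, DUSP16 with carnosic acid was 0.050 and 0.038, and FOSB 0.014 and 0.017. Over all omissions of 1 array the lowest values were -0.23 (ATF3, extract), -0.12 (EGR1, extract), -0.24 (EGR1, carnosic acid), -0.093 (DUSP16, carnosic acid) and -0.089 (FOSB, carnosic acid). The cause was not tested.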
